A study of Mus musculus with 48 samples.

Results

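Reprogramming of mouse fibroblasts to pluripotency was followed through 9 interferon-stimulated genes, namely Ifit1, Ifit3, Isg15, Irf7, Oasl2, Bst2, Ifitm1, Ifitm2 and Ifitm3. They were taken by name from the read-count table, and all 9 were among its 24264 transcript rows, of which 19768 had at least 1 read. All 9 passed the filter on low counts and were among the 15630 genes tested. Levels are given in CPM, which divides a gene's read count by the library's total over transcript rows.

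RNA was counted at transcript 5′ ends in 48 libraries of 20 conditions. The 3 kinds of mouse embryonic fibroblasts (MEFs) were wild-type (WT), MKOS and OKMS cells, with 2 libraries each. MKOS and OKMS cells carried a doxycycline-inducible cassette of Oct4, Sox2, Klf4 and Myc with mOrange in an intron of Sp3, an rtTA driver and a Nanog-GFP reporter, and the cassettes differ in the order of their factors and in Klf4, since the form in OKMS lacks the first residues of the protein. Transgenic MEFs came from chimeric embryos and were diluted with WT MEFs for reprogramming in doxycycline and vitamin C, with LIF in the medium. The labels give 10 or 15 days of culture for the sorted cells without saying which library had which, while the published protocol puts the sorting of NG- cells on day 10. Sorting was by E-cadherin (E-CAD), CD44, ICAM1 and Nanog-GFP. Gate 2 is CD44-low ICAM1-low, gate 3 is CD44-low ICAM1-high, and NG- or NG+ marks cells without or with Nanog-GFP. The 8 sorted populations had 3 libraries each. Of both cassettes there were E-CAD+ cells of the gates 2NG-, 3NG- and 3NG+, and of OKMS there were also E-CAD- cells in 2NG- and 3NG-. The other 9 conditions had 2 libraries each. They were MKOS and OKMS induced pluripotent stem cells (iPSCs) without doxycycline (-dox) or in 2i medium, the iPSC line D6, which carries a single MKOS integration, and embryonic stem cells (ESCs), namely TNG MKOS, TNG OKMS, TNG (Nanog-GFP reporter alone) and E14. No label says that libraries of a condition came from separate cultures or animals, so p-values measure the spread between libraries, which may be technical. No sample was labelled as treated with interferon.

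Interferons are secreted proteins that cells release on sensing viral nucleic acid. They bind surface receptors, whose JAK kinases activate STAT proteins, and STAT complexes with IRF9 enter the nucleus and bind the interferon-stimulated response element upstream of target genes. Pluripotent cells are known for a weak response to interferon, while some interferon-stimulated genes are kept on in them without it.

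The response element holds a repeat of TTTC (GAAA on the other strand). The letters TTTCNNTTTC or GAAANNGAAA were searched on both strands in RefSeq promoter windows of 300 bases, from 250 before to 50 after each transcription start (build GRCm38.p6). They were found in 3.44% of 32851 windows and in 6 of the 9 members' windows. The stretches below are from these 6 windows and hold the matches with their flanks, each 5′ to 3′ on the strand of its gene. They are shown because the members were grouped as interferon targets and this is the letter pattern named for that group, and capitals mark the matched letters.
Ifit1, chr19:34640770-34640828, + strand: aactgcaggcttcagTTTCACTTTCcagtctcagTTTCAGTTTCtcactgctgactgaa
Ifit3, chr19:34583358-34583431, + strand: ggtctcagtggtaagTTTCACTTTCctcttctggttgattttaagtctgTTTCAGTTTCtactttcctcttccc
Isg15, chr4:156200860-156200911, - strand: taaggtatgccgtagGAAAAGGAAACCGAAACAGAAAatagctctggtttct
Bst2, chr8:71537572-71537617, - strand: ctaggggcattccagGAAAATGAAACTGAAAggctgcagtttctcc
Ifitm2, chr7:140955983-140956022, - strand: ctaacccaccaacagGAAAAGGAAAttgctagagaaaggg
Ifitm3, chr7:141010715-141010744, - strand: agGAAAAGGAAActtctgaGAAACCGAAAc

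The Ifitm2 window held 1 match, Isg15 held 3 and the others 2 each, and those of Isg15 and Bst2 overlap. The 2 matches of Ifitm3 lie in the first bases of its annotated transcript. No match was in the windows of Irf7, Oasl2 and Ifitm1, and the window listed for Ifitm1 starts inside the annotated gene (which begins at chromosome 7 position 140967429). The Ifit3 window also starts inside its annotated gene (from chromosome 19 position 34583119), and the Ifitm2 window lies wholly inside its gene (chromosome 7, 140954837 to 140959686). Of a fixed list of other interferon-stimulated genes, 23 of 49 genes with a window held the letters. A match is a description of letters and was not tested as a binding site here.

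Isg15 encodes a ubiquitin-like protein that is attached to other proteins, Ifit1 and Ifit3 encode proteins that act on viral RNA, Oasl2 belongs to the oligoadenylate synthetase-like family, and Irf7 is a transcription factor that raises type I interferon expression. These 5 genes had few reads, from 90 for Ifit3 to 1678 for Isg15 over all 48 libraries. Isg15 had a read in 39 libraries, Oasl2 in 30, Ifit1 in 24, Irf7 in 21 and Ifit3 in 11. Bst2 encodes tetherin, which holds budding virions at the cell surface, and Ifitm1, Ifitm2 and Ifitm3 encode membrane proteins that hinder the entry of enveloped viruses. These 4 had a read in all 48 libraries, from 30810 reads for Bst2 to 313191 for Ifitm2. Reads with a unique genome position made up 91.51% of the Ifitm1 reads, 87.29% for Ifitm2, 98.49% for Ifitm3 and 100% for Bst2, so part of the Ifitm1 and Ifitm2 signal could belong to a close copy. Counts of 5′ ends do not grow with transcript length, and no level of 1 gene is compared with that of another.

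Library depth ran from 1429717 to 14174725 reads on transcripts, with a median of 6243254, so that 3 reads correspond to between 0.212 and 2.10 CPM. Intervals and limits cover counting error only. The sorted labels were checked against marker genes. Cdh1 (E-cadherin) was 62.6 to 182.5 CPM in E-CAD+ libraries and 4.24 to 51.5 CPM in E-CAD- libraries. Nanog was at 0 in all 6 MEF libraries and between 16.2 and 97.3 CPM in E-CAD+ libraries. Nanog did not fully part the NG- and NG+ cells, since MKOS 3NG- replicate 3 (75.7 CPM) was above MKOS 3NG+ replicate 1 (51.1 CPM). Cd44, whose protein was gated low in all sorted cells, was 158.5, 145.0 and 96.1 CPM in OKMS E-CAD- 3NG- and 135.4, 125.0 and 9.18 CPM in OKMS E-CAD+ 3NG- cells, against 119.0 and 65.4 CPM in WT MEFs and 251.7 and 361.5 CPM in OKMS MEFs. The sorted OKMS 3NG- cells thus overlapped the WT MEFs in Cd44 RNA.

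The sorted libraries numbered 3 stood apart from those numbered 1 and 2 in members of the set and in other genes. Ifitm1 was highest in the library numbered 3 in all 8 sorted populations, at 1.30 to 25.0 times the mean of the other 2 libraries. Nanog was highest there in 7 of 8 populations, at 0.573 to 2.64 times that mean. Lyz2, the most abundant macrophage gene, was lowest there in 8 of 8, at 0.0537 to 0.485 times it. Bst2 was lowest there in 5 of 8 populations. No label names a batch. Several results that rest on these libraries are also given without them, and for some others the range with 1 library left out is given.

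**Figure D1:**
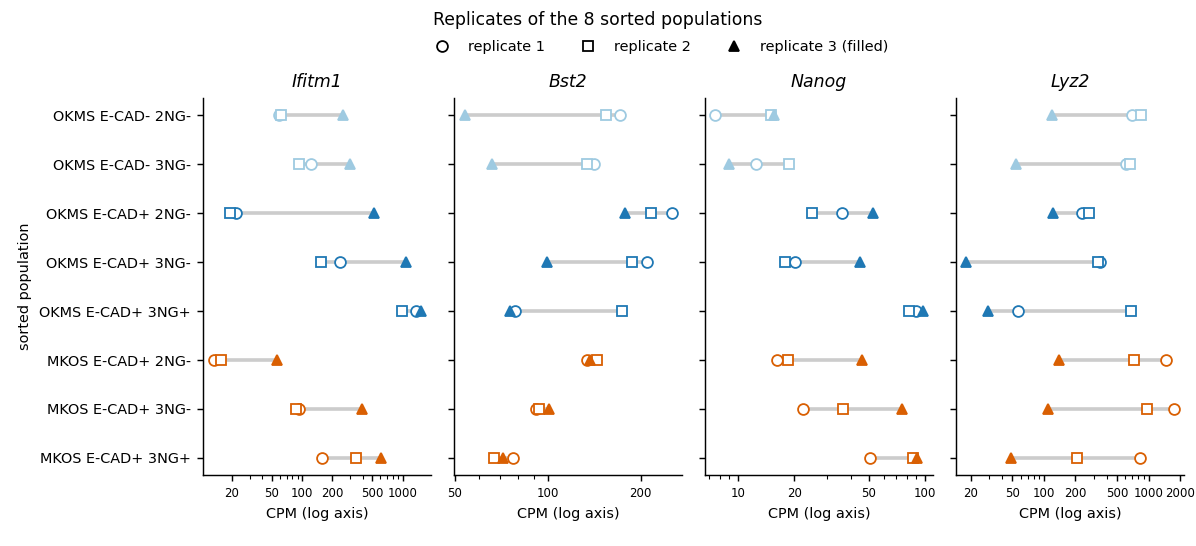
CPM (log axis) of Ifitm1, Bst2, Nanog and Lyz2 in the 3 libraries of each of 8 sorted populations, with the library numbered 3 as a filled triangle. Ifitm1 is highest and Lyz2 lowest in the library numbered 3 in all 8 populations.

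Bst2 was low in MEFs and in 2i iPSCs and higher in sorted cells, in ESCs and in iPSCs without doxycycline. WT MEFs had 11.9 and 16.3 CPM, OKMS MEFs 14.7 and 13.4 CPM, and MKOS MEFs 31.8 and 34.1 CPM. Among OKMS cells it was 252.1, 216.3 and 178.3 CPM in E-CAD+ 2NG-, 210.0, 187.6 and 99.1 CPM in E-CAD+ 3NG-, and 78.1, 174.2 and 75.7 CPM in 3NG+. OKMS E-CAD+ 2NG- cells held the highest mean of all 20 conditions (215.6 CPM ± 36.9, SD, n = 3) and OKMS MEFs the lowest (14.03 CPM ± 0.893, n = 2). In MKOS E-CAD+ cells Bst2 was 134.4, 144.1 and 136.7 CPM in 2NG-, 91.7, 93.5 and 100.7 CPM in 3NG-, and 77.2, 66.8 and 71.5 CPM in 3NG+. These 3 MKOS populations did not overlap, and the order was 2NG- above 3NG- above 3NG+. Of all genes tested, 16.7% did not overlap between 2NG- and 3NG- and 24.2% between 3NG- and 3NG+. Bst2 was called at neither step in the comparisons below, nor in any of the 6 fits of each with 1 library left out. OKMS E-CAD- cells had 171.5, 154.8 and 53.8 CPM in 2NG- and 141.2, 133.5 and 66.2 CPM in 3NG-. Ordered by mean, 14 of the 19 pairs of neighbouring conditions overlapped in their libraries.

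Bst2 in pluripotent cells differed between media. It was 86.0 and 134.1 CPM in MKOS iPSCs and 210.5 and 34.2 CPM in OKMS iPSCs without doxycycline. In 2i medium it was 27.2 and 21.8 CPM in MKOS and 18.7 and 14.2 CPM in OKMS iPSCs, the level range of MEFs. D6 iPSCs had 59.96 and 81.5 CPM. ESCs had 81.2 and 71.3 CPM in TNG MKOS, 46.1 and 45.1 CPM in TNG OKMS, 82.6 and 96.5 CPM in TNG, and 92.8 and 90.3 CPM in E14, all above the 2i iPSCs and overlapping the iPSCs without doxycycline.

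Ifitm1 had its lowest mean in MKOS 2NG- cells, and OKMS 3NG+ cells (1287 CPM) had nearly the highest. MEF libraries lay between 184.5 and 424.8 CPM. In MKOS E-CAD+ cells it was 13.2, 15.7 and 55.6 CPM in 2NG-, 92.0, 86.9 and 389.9 CPM in 3NG-, and 155.8, 342.9 and 612.5 CPM in 3NG+. OKMS E-CAD+ cells had 22.2, 19.02 and 515.4 CPM in 2NG-, 239.8, 155.2 and 1072 CPM in 3NG-, and 1355, 982.7 and 1524 CPM in 3NG+. OKMS E-CAD- cells had 58.3, 62.1 and 256.2 CPM in 2NG- and 121.9, 93.1 and 296.7 CPM in 3NG-. The last value of each set is the library numbered 3, and in OKMS E-CAD+ 2NG- it was over all MEF libraries while the other 2 were under all of them. The highest mean was that of TNG MKOS ESCs (1288 CPM, n = 2) and the lowest that of MKOS 2NG- cells (28.1 CPM ± 23.8, n = 3). iPSC libraries ran from 300.3 to 1620 CPM and ESC libraries from 751.9 to 1372 CPM. Of the 19 neighbouring pairs of conditions, 17 overlapped.

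Ifitm2 and Ifitm3 had their highest means in MKOS MEFs and their lowest in MKOS 2NG- cells, while the lowest single Ifitm3 library was MKOS iPSC 2i replicate 1 (62.7 CPM). Ifitm2 was 2055 and 1875 CPM in MKOS MEFs, 1317 and 1543 CPM in WT MEFs, and 1273 and 1050 CPM in OKMS MEFs. It was 438.2, 370.5 and 419.8 CPM in MKOS 2NG- and 607.9, 570.6 and 763.2 CPM in OKMS E-CAD+ 2NG- cells, which did not overlap each other or the MEFs. D6 iPSCs (1432 and 1244 CPM) were the only pluripotent condition whose libraries both reached the MEF range. Ifitm3 was 1642 and 1367 CPM in MKOS MEFs, 1031 and 1385 CPM in WT MEFs, and 982.5 and 954.5 CPM in OKMS MEFs. In MKOS 2NG- cells it was 197.7, 95.2 and 175.1 CPM, and in OKMS E-CAD+ 2NG- cells 125.4, 123.1 and 388.2 CPM. All sorted, iPSC and ESC libraries were below all MEF libraries in Ifitm3, the highest being 798.6 CPM in an OKMS E-CAD- 3NG- library. Neighbouring conditions overlapped in 17 of 19 pairs for Ifitm2 and 16 of 19 for Ifitm3.

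**Figure D2:**
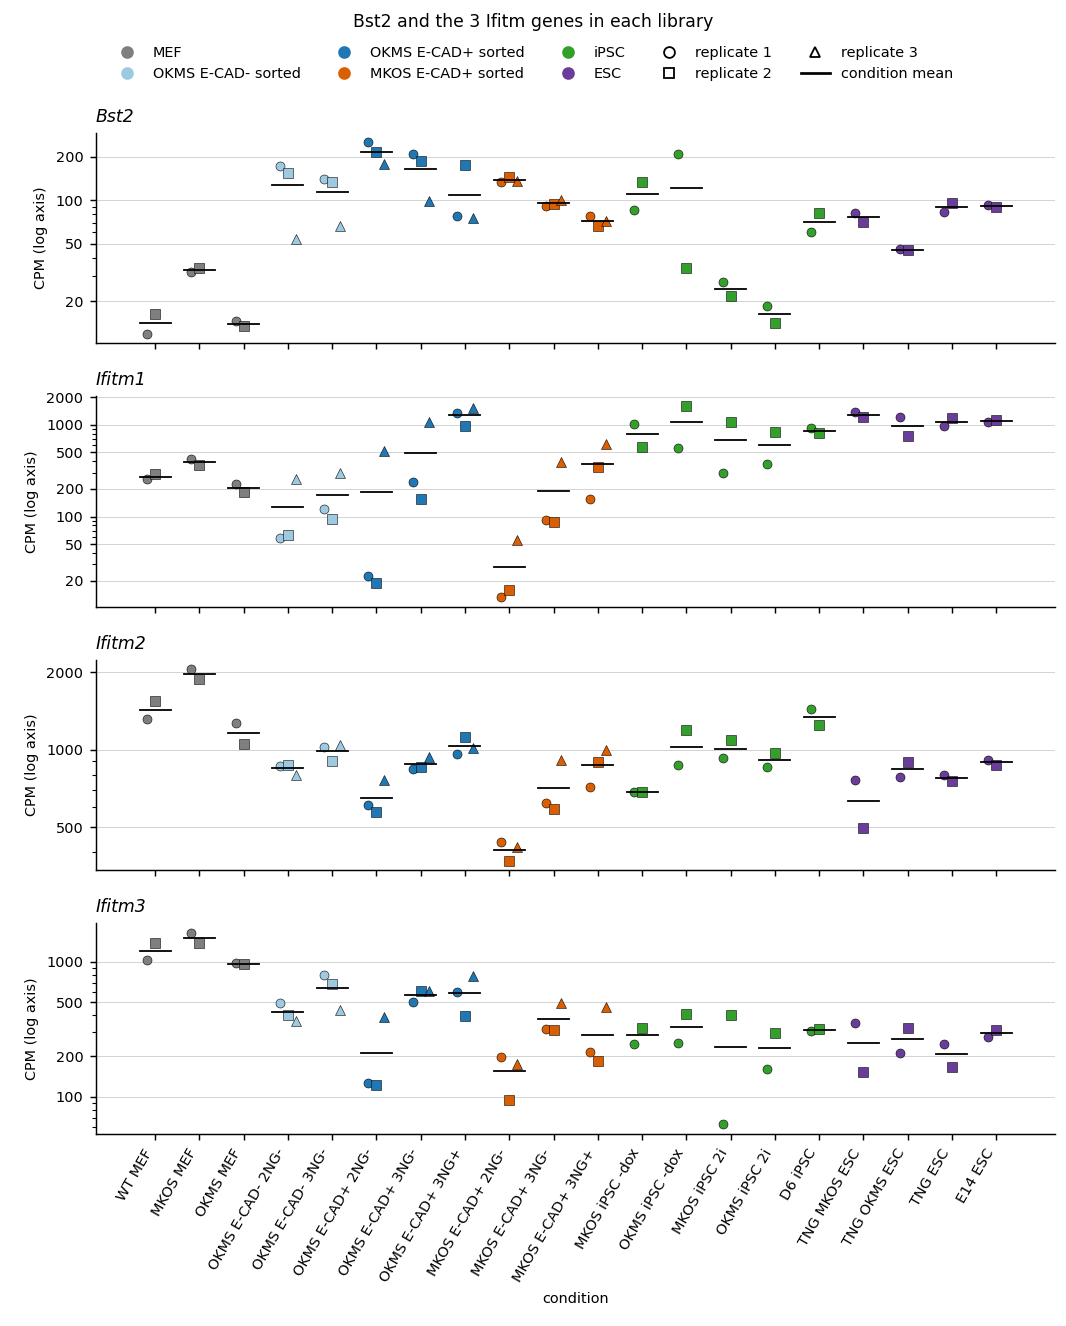
CPM (log axis) of Bst2, Ifitm1, Ifitm2 and Ifitm3 in each library (points) of the 20 conditions, with bars at the condition mean. Bst2 is lowest in MEFs and 2i iPSCs, and Ifitm2 and Ifitm3 have their highest means in MKOS MEFs and their lowest in MKOS 2NG- cells.

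The 5 genes with few reads were mostly seen in MEFs and sorted cells. Isg15 was 19.1 and 16.0 CPM in MKOS MEFs, 6.42 and 10.0 CPM in WT MEFs, and 4.27 and 4.47 CPM in OKMS MEFs. Among sorted cells it was 17.9, 5.31 and 3.39 CPM in MKOS 2NG- and 4.77, 6.13 and 5.86 CPM in OKMS E-CAD+ 2NG-. The sorted libraries ran from 0, in the shallowest library (OKMS 3NG+ replicate 2), to 17.9 CPM, and the iPSC and ESC libraries from 0 to 3.30 CPM. Pooled over libraries, Isg15 was 9.78 CPM in MEFs (461 reads, 95% exact Poisson interval 8.91 to 10.7), 8.48 CPM in sorted NG- cells (998 reads) and 4.82 CPM in sorted NG+ cells (173 reads). It was 0.549 CPM in iPSCs (37 reads) and 0.1296 CPM in ESCs (9 reads, interval 0.0593 to 0.246). Pooled values weight libraries by depth.

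Ifit3 and Irf7 showed the same split at lower counts. Ifit3 had 90 reads in the 30 MEF and sorted libraries and 0 reads in the 18 iPSC and ESC libraries (136810031 reads on transcripts), which allows up to 0.0219 CPM. Irf7 had 202 reads in the first set and 1 in the second. Its highest condition means were in MKOS cells, at 2.35, 1.10 and 2.74 CPM in 3NG- and 0.816, 2.07 and 2.71 CPM in 2NG-, whereas MKOS 3NG+ cells had 0, 0.198 and 0 CPM. The highest single library was OKMS E-CAD+ 3NG+ replicate 1 (3.03 CPM), whose population had 0 in the other 2 libraries. Ifit1 had 24 reads in iPSCs, of which all were in cells without doxycycline in serum medium, and 1 read in ESCs. OKMS iPSCs without doxycycline (1.86 and 1.43 CPM) were above the WT MEFs (1.13 and 0.365 CPM) and OKMS MEFs (1.30 and 0 CPM). MKOS iPSCs without doxycycline had 0 and 1.24 CPM, and MKOS MEFs 2.56 and 3.55 CPM. Oasl2 was also read in ESCs, with 57 reads (0.821 CPM, interval 0.622 to 1.06), of which 27 were in TNG MKOS replicate 1 and 30 in the other 7 libraries (0.507 CPM). It had 22 reads in MEFs (0.467 CPM, interval 0.293 to 0.707), and its mean was highest in OKMS E-CAD+ 3NG- cells (4.73, 1.43 and 5.18 CPM). Among iPSCs Oasl2 was 0.933 and 2.84 CPM in MKOS cells without doxycycline, 0 and 1.32 CPM in MKOS cells in 2i, and 0 in the others. For Ifit1, Ifit3, Irf7 and Oasl2 all 19 neighbouring pairs of conditions overlapped, and for Isg15 16 of 19.

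**Figure D3:**
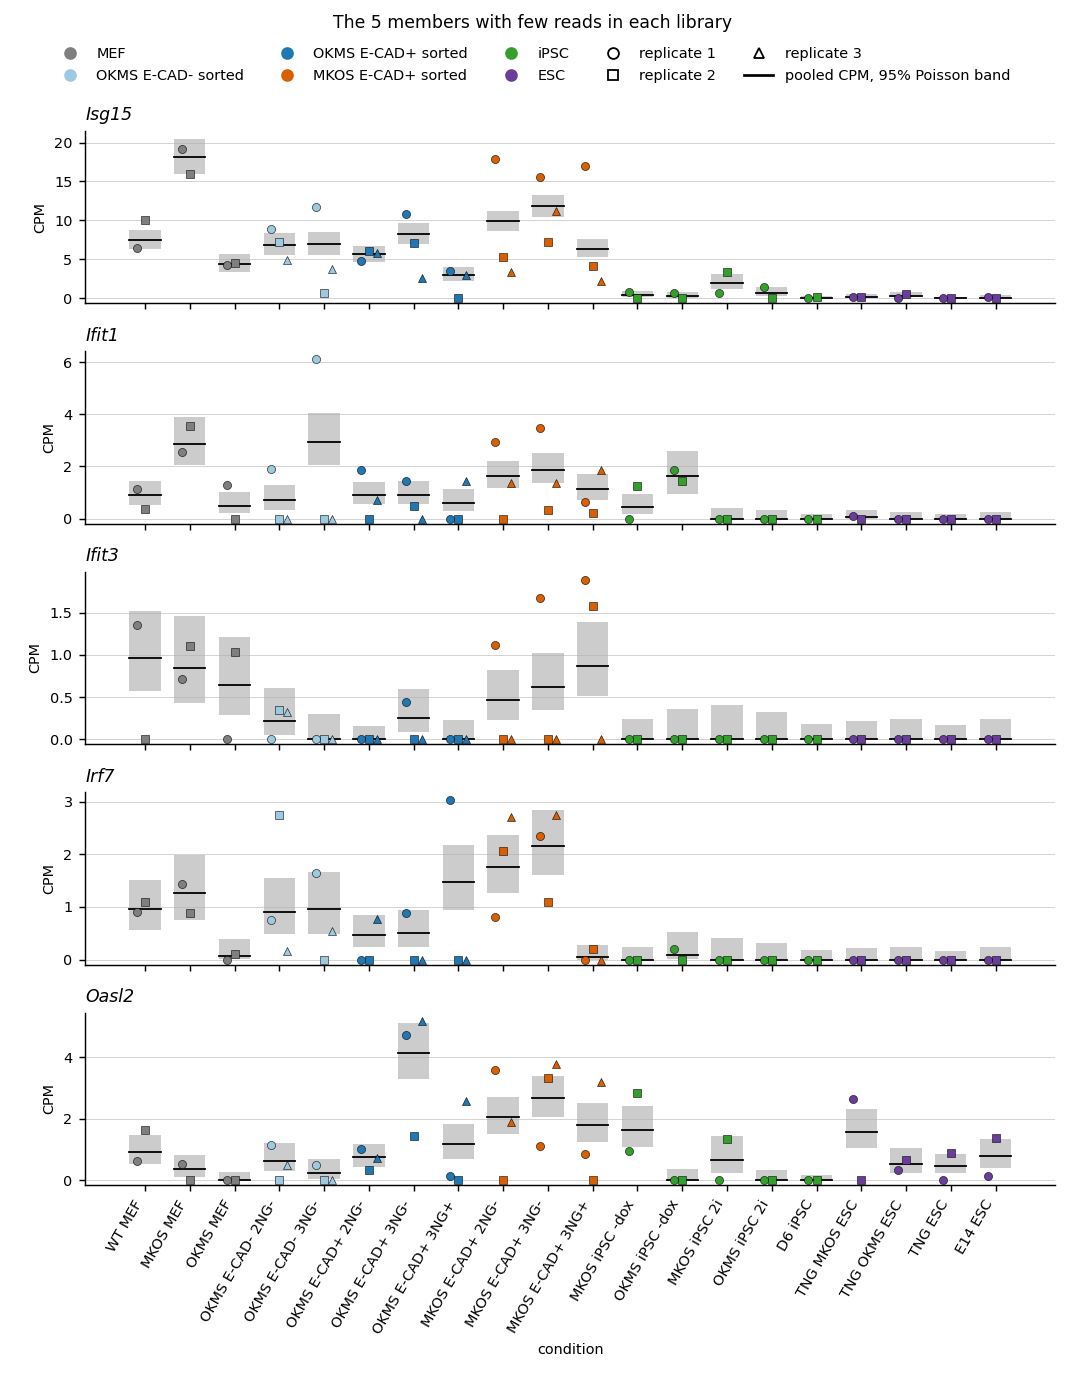
CPM (linear axis) of Isg15, Ifit1, Ifit3, Irf7 and Oasl2 in each library (points) of the 20 conditions, with lines at the pooled CPM and grey bands for its 95% Poisson interval. Ifit3 is at 0 in all iPSC and ESC libraries, and Isg15 is at most 3.30 CPM in them.

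Comparisons were made with edgeR's quasi-likelihood test across all 15630 genes, and a gene was called at a Benjamini-Hochberg adjusted p of at most 0.05. Of 20 comparisons, 7 called at least 1 member. The question of the first set is what changes between MEFs and the sorted 2NG- population, sorted as CD44-low and ICAM1-low. Bulk libraries cannot tell fewer cells of a type from less RNA per cell.

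In MKOS cells Bst2 rose and the 3 Ifitm genes fell, with 27% of all genes called (15% higher and 12% lower). Bst2 was 4.2-fold higher in 2NG- cells than in MKOS MEFs (138.4 against 32.98 CPM, log2 fold change 2.03 ± 0.47 SE, adjusted p = 9.18e-04). Ifitm1 was 14-fold lower in mean CPM (log2 fold change -3.86 ± 0.90, adjusted p = 0.00114). With 1 library left out its log2 fold change ran from -4.82 to -3.52. Ifitm3 was 9.64-fold lower (-3.31 ± 0.51, adjusted p = 4.12e-06) and Ifitm2 4.80-fold lower (409.5 against 1965 CPM, adjusted p = 5.71e-10). For each of these 4 genes the groups did not overlap, as for 57.4% of all genes tested, and each was called in 5 of 5 fits that left out 1 library. None of the other 5 members was called, Isg15 among them at 8.89 against 17.6 CPM (adjusted p = 0.480).

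In OKMS cells Bst2 also rose, and Ifitm1 was not called. Of all genes, 29.2% were called between E-CAD+ 2NG- cells and OKMS MEFs, 15.7% higher and 13.5% lower. Bst2 was 15.4-fold higher (4.04 ± 0.52, adjusted p = 1.19e-07) and Ifitm3 4.56-fold lower (adjusted p = 0.00162). Ifitm3 was called in 5 of 5 fits with 1 library left out, at log2 fold changes from -2.90 to -1.74. Ifitm2 was 1.80-fold lower (-0.74 ± 0.23, adjusted p = 0.0116), and this call was lost without OKMS E-CAD+ 2NG- replicate 2 (adjusted p = 0.0667) or without OKMS MEF replicate 1 (adjusted p = 0.232). Ifitm1 differed by 0.04 ± 0.86 on the log2 scale with all libraries. Without replicate 3 of the 2NG- cells it was -3.26 and called (adjusted p = 0.00272).

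OKMS E-CAD- 2NG- cells, sorted without surface E-cadherin, also had more Bst2 than OKMS MEFs. The difference was 9.03-fold (3.16 ± 0.50, adjusted p = 8.74e-06), with 21.8% of all genes called (11.7% higher) and no other member among them. Ifitm3 was 421.5 against 968.5 CPM without a call (adjusted p = 0.0698), although no library overlapped (as for 46.6% of all genes), and was called with DESeq2 size factors (adjusted p = 0.0483), with the replicate block (0.0314) and with these libraries compared alone (0.00395). Between OKMS E-CAD+ and E-CAD- cells, averaged over both gates, no member was called, while 7.08% of all genes were (4.69% higher and 2.39% lower). Bst2 was 190.6 CPM in E-CAD+ and 120.2 CPM in E-CAD- cells (0.76 ± 0.27, adjusted p = 0.0835). This difference was called with the replicate block (0.81, adjusted p = 0.0361) and without OKMS E-CAD- 2NG- replicate 1 (adjusted p = 0.0474).

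The change of Ifitm2 from MEFs to 2NG- cells differed between the cassettes, by -1.57 ± 0.33 on the log2 scale (MKOS minus OKMS, adjusted p = 0.00573), with 1.35% of all genes called (0.557% lower). This call was lost without MKOS MEF replicate 1 (adjusted p = 0.055) or OKMS MEF replicate 2 (adjusted p = 0.0716). The differences of Bst2 (-2.01, adjusted p = 0.103) and Ifitm1 (-3.89, adjusted p = 0.117) were not called. The Ifitm1 difference was -0.60 without OKMS E-CAD+ 2NG- replicate 3 and -1.57 without all libraries numbered 3, while it was called with the replicate block (-3.13, adjusted p = 0.0196). Bst2 was called with these libraries compared alone (adjusted p = 0.00571). The starting MEFs of the cassettes did not overlap in Ifit1, Isg15, Irf7, Bst2, Ifitm1, Ifitm2 and Ifitm3, each higher in both MKOS libraries, as were 16.4% of all genes tested (19.7% were lower in both), but no member was called between them (lowest adjusted p = 0.339, for Ifitm2), with 0.102% of all genes called.

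**Figure D4:**
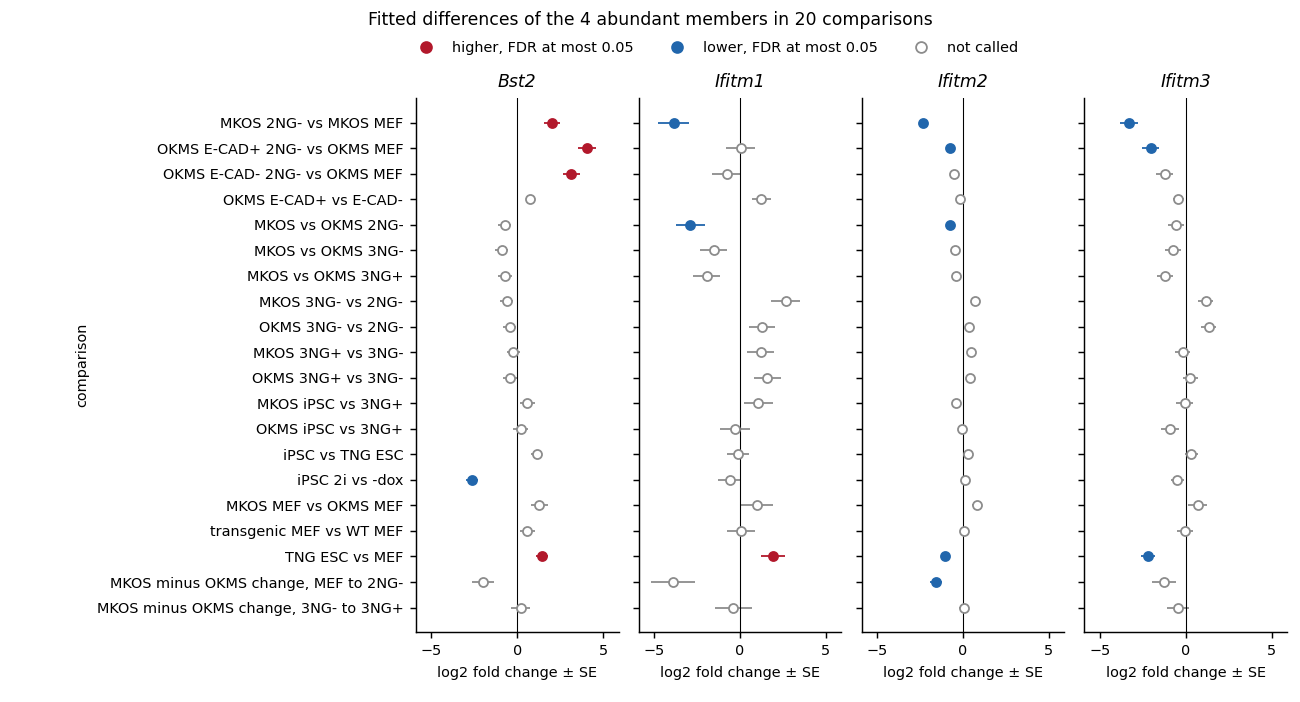
Log2 fold changes with standard errors of Bst2, Ifitm1, Ifitm2 and Ifitm3 in 20 comparisons by edgeR, with called values filled (red higher, blue lower) and others open. Bst2 is called higher in all 3 comparisons of 2NG- cells with MEFs, and Ifitm2 is called lower in 2 of them.

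Directly compared, MKOS 2NG- cells had less Ifitm1 and Ifitm2 than OKMS E-CAD+ 2NG- cells, with 5.07% of all genes called (2.23% lower). Ifitm2 was 1.58-fold lower (-0.76 ± 0.21, adjusted p = 0.0212) and its libraries did not overlap, as for 25% of all genes. Ifitm1 was 6.60-fold lower in mean CPM (-2.91 ± 0.83, adjusted p = 0.0311), but its libraries overlapped and the OKMS mean rests on replicate 3 (515.4 CPM against 22.2 and 19.02 CPM). Without that library Ifitm1 was 0.39 higher in MKOS on the log2 scale (adjusted p = 0.861) and Ifitm2 lost its call (adjusted p = 0.175). Ifitm1 also lost its call without MKOS 2NG- replicate 1 (adjusted p = 0.157) or replicate 2 (adjusted p = 0.158), and with these libraries compared alone (-2.91, adjusted p = 0.173). Ifitm2 did so without MKOS 2NG- replicate 2 (adjusted p = 0.122) or replicate 3 (adjusted p = 0.055).

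Along each route, the gain of ICAM1 and then of Nanog-GFP gave no called member in the main fit of all libraries, which did not pair same-numbered libraries. With the sorted libraries numbered 3 left out together, Ifitm1 was called higher at each of these 4 steps, from 2NG- to 3NG- in MKOS (2.58, adjusted p = 0.00198) and OKMS (3.21, adjusted p = 2.60e-04) and from 3NG- to 3NG+ in MKOS (1.64, adjusted p = 0.0407) and OKMS (2.79, adjusted p = 8.57e-05). These libraries were set aside after Ifitm1 was seen to be highest in them, which by construction narrows its spread, so these calls are descriptions and support nothing further. From 2NG- to 3NG- in MKOS cells Ifitm1 was 28.1 and then 189.6 CPM (2.65 ± 0.83, adjusted p = 0.234), with 0.39% of all genes called and no overlap. Same-numbered libraries of these populations deviated together, and with the replicate number as a block the difference was called (2.62, adjusted p = 0.00335). Ifitm2 (409.5 and 707.4 CPM, adjusted p = 0.185) and Ifitm3 (156.0 and 373.4 CPM, adjusted p = 0.512) also had no overlap, as had 16.7% of all genes. In OKMS cells Ifitm1 was 185.5 and then 488.9 CPM (1.28 ± 0.78, unadjusted p = 0.108 by edgeR, not called), and 4.57 on the log2 scale and called without OKMS E-CAD+ 2NG- replicate 3 (adjusted p = 0.00446). Ifitm3 was 212.2 and then 569.9 CPM (adjusted p = 0.793, with 0.0384% of genes called). Without the same library it was 2.19 on the log2 scale and called (adjusted p = 0.0333). From 3NG- to 3NG+ in OKMS, Ifitm1 (1.58, adjusted p = 0.233) was called without OKMS E-CAD+ 3NG- replicate 3 (2.95, adjusted p = 0.0364). In 3NG+ cells Ifitm1 was 370.4 CPM in MKOS and 1287 CPM in OKMS, which did not overlap, as for 17.2% of all genes (-1.94 ± 0.79, adjusted p = 0.293, with 0.685% of genes called). This difference was -2.36 with the libraries numbered 3 left out (adjusted p = 0.00477, with the same limit), and it was called with the replicate block (adjusted p = 0.0114) and with these libraries compared alone (adjusted p = 0.0213).

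Among all 13 comparisons with 0 members called by edgeR, 1 to 3 members had an unadjusted p under 0.05 in each, as did 5.09% to 21.5% of all genes. The share of all genes called was 2.17% between the cassettes' 3NG- cells, 1.58% from 3NG- to 3NG+ in MKOS and 6.26% in OKMS, 0.614% between OKMS iPSCs and 3NG+ cells, 0.717% between transgenic and WT MEFs, and 0.0256% for the difference between cassettes from 3NG- to 3NG+. DESeq2's Wald test called at most 1 member in any of them, and did so in 2. One was MKOS iPSCs against 3NG+ cells, where Isg15 had 7 and 124 reads (ratio 13.9, interval 6.52 to 35.2, adjusted p = 0.0881 by edgeR, with 2.14% of genes called). The other was iPSCs without doxycycline against TNG MKOS and TNG OKMS ESCs, where Bst2 was 116.2 and 60.9 CPM (1.13 ± 0.34, adjusted p = 0.0780 by edgeR, with 1.4% of genes called). Without OKMS iPSC replicate 2, whose Bst2 was 34.2 CPM, this difference was 1.53 and called (adjusted p = 0.00186). That was the 1 call in 8 fits with 1 library left out, in which the difference ran from 0.18 to 1.53 (adjusted p up to 0.966).

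In iPSCs Bst2 was the member called between media with all libraries. Bst2 was 5.67-fold lower in 2i than without doxycycline in serum medium (20.5 against 116.2 CPM, -2.65 ± 0.36, adjusted p = 3.90e-06, n = 4 against 4 over both cassettes). The groups did not overlap (as for 7.74% of all genes), and 4.34% of all genes were called (2.45% lower). The call held in 8 of 8 fits with 1 library left out, in which the difference ran from -3.05 to -1.69. Ifitm1, Ifitm2 and Ifitm3 had adjusted p-values of 0.746, 0.907 and 0.599, and Ifitm3 was called lower without MKOS iPSC 2i replicate 2 (-1.47, adjusted p = 0.0314). Ifit1 had 24 reads without doxycycline and 0 in 2i (adjusted p = 0.163).

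The widest comparison, of TNG MKOS and TNG OKMS ESCs with the MEFs of the same cassettes, called 2 members higher and 5 lower, among 50.9% of all genes (26% higher and 25% lower). Bst2 was 2.59-fold higher in ESCs (adjusted p = 6.52e-04) and Ifitm1 3.78-fold higher (1.93 ± 0.69, adjusted p = 0.0178). The Ifitm1 call was lost without MKOS MEF replicate 2 (adjusted p = 0.0632) or OKMS MEF replicate 2 (adjusted p = 0.0700). Ifitm2 was 2.13-fold lower (adjusted p = 4.28e-06) and Ifitm3 4.78-fold lower (-2.20 ± 0.41, adjusted p = 1.82e-05). All 4 had groups that did not overlap, as had 43.2% of all genes.

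Isg15 had 8 reads in these 4 ESC libraries, 5 of them in TNG OKMS replicate 2, and 321 in the MEFs. The ratio was 45.5 (interval 22.8 to 106, -5.12 ± 1.01, adjusted p = 5.41e-05). The call held in 8 of 8 fits with 1 library left out, in which the difference ran from -7.19 to -4.70. Ifit1 had 1 read against 48 (ratio 54.4, interval 9.32 to 2194, adjusted p = 0.0295), and its call held in 3 of 8 such fits. Ifit3 had 0 reads against 21, at least 7.94-fold lower against a floor of 3 reads over the group (adjusted p = 0.0478), and held in 1 of 8. The adjusted p of these 2 genes lay between 0.0548 and 1.00 in the fits that lost the call, with the highest value without OKMS MEF replicate 1 for Ifit1 and without OKMS MEF replicate 2 for Ifit3. Irf7 had 0 reads against 19 (at least 7.18-fold lower, adjusted p = 0.0684), and Oasl2 had 35 against 5 (adjusted p = 0.0842), with 27 of the 35 in TNG MKOS ESC replicate 1.

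The genes upstream of the members were looked up from lists of the pathway, to be read against the 50.9% of all genes called between TNG ESCs and MEFs. Of 21 interferon genes listed, 19 were in the table, 4 had a read, 1 was tested and 0 were called in the 7 comparisons that called a member. Among 6 tested receptor chains, 5 fell and 1 rose from MEFs to TNG ESCs (median log2 fold change -2.59, against 0 for all genes). Ifngr2, a chain of the interferon-gamma receptor, was 1.49 against 34.8 CPM, and Ifnar2, of the type I receptor, 2.69 against 17.4 CPM. Il28ra, the lambda receptor chain, was 0.806 CPM in ESCs and at 0 in MEFs (at least 7.35-fold higher). Of 6 JAK and STAT genes 4 fell, with Jak1 at 21.3 against 153.1 CPM (-2.87 ± 0.28) and Jak2 at 2.17 against 41.0 CPM. Of 17 sensors and their adaptors 8 fell and 1 rose (52.94%, near the share of all genes). Tmem173 (STING), which relays the sensing of cytosolic DNA, had 0 reads in these ESCs against 1755 in MEFs (at least 663.5-fold lower), and Adar, an RNA-editing enzyme, rose (1.77 ± 0.34).

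Some kinase genes and receptor chains also fell from MEFs to 2NG- cells, where the share of all genes called was 27% for MKOS, 29.2% for OKMS E-CAD+ and 21.8% for OKMS E-CAD-. Against MKOS MEFs, 3 of 6 JAK and STAT genes fell (Jak2 -3.45, Jak1 -2.23 and Stat2 -1.59 on the log2 scale), as did 1 of 6 receptors, Ifnar1 (12.5 against 43.3 CPM). Against OKMS MEFs, 4 of 6 JAK and STAT genes and 3 receptors fell in E-CAD+ 2NG- cells, and 3 and 2 in E-CAD- 2NG- cells. Il28ra rose in OKMS E-CAD+ 2NG- cells (1.53 CPM against 0, at least 5.29-fold higher, adjusted p = 0.0458). Jak1 fell in all 3 comparisons and was 124.1 to 169.6 CPM in the MEF means and 10.0 to 36.9 CPM in the means of all other conditions. Of 17 sensors and adaptors 1 rose and 1 fell in MKOS, 3 fell in OKMS E-CAD+ and 1 rose and 3 fell in OKMS E-CAD- cells (11.76%, 17.65% and 23.53% of the list). Tmem173 fell in all 3 (-4.41, -5.06 and -4.71), Samhd1, which breaks down nucleotides, rose in MKOS (1.23) and Adar in OKMS E-CAD- cells (1.61). Socs3, an inhibitor of JAK signalling, fell in 2NG- cells of MKOS (17.9 against 109.8 CPM) and E-CAD+ OKMS (5.24 against 35.4 CPM), as the 1 of 6 negative regulators that did. Ptpn6, a phosphatase, rose in E-CAD+ OKMS cells (1.90, adjusted p = 0.00211). Of 6 negative regulators tested in TNG ESCs against MEFs, Ptpn6 rose (1.69) and Socs3 fell (-1.19).

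Of 6 IRF transcription factors tested beside Irf7, 1 rose and 2 fell from MEFs to TNG ESCs (50% of the list, with 50.9% of all genes called). Irf2 had 1 read against 403 (14.2 CPM in MEFs) and Irf5 was 0.301 against 7.92 CPM. From MEFs to 2NG- cells 1 rose and 1 fell in MKOS, 1 rose in OKMS E-CAD+ and 2 fell in OKMS E-CAD- cells. These were 33.33%, 16.67% and 33.33% of the list, with 27%, 29.2% and 21.8% of all genes called. Irf1 was higher in E-CAD+ than in E-CAD- cells of OKMS (24.6 against 7.22 CPM, 1.87 ± 0.36, adjusted p = 4.51e-04).

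From MEFs, other interferon-stimulated genes moved in both directions. Of 59 tested, 25 fell and 12 rose from MEFs to TNG ESCs, with a median log2 fold change of -2.88 (-2.68 with the 19 genes at 0 in a group set to their bound). Ifi204, a DNA-binding protein, had 0 reads against 1778 (at least 672.2-fold lower), and Oas1a, an oligoadenylate synthetase, had 41 against 0 (at least 12.1-fold higher). From MKOS MEFs to 2NG- cells 4 rose and 6 fell (median -0.58), and from OKMS MEFs to E-CAD+ 2NG- cells 4 rose and 5 fell (median 0). These were 16.95% and 15.25% of the list, below the 27% and 29.2% of all genes, and for ESCs the share was 62.71% against 50.9%. From OKMS MEFs to E-CAD- 2NG- cells 1 rose and 8 fell (15.25% of the list, with 21.8% of all genes called). Between iPSCs without doxycycline and TNG MKOS and TNG OKMS ESCs, 7 were higher in iPSCs and 0 lower. That was 11.86% of the list, with 1.4% of all genes called.

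Oas1g and Oas1a, which encode oligoadenylate synthetases, were higher in MKOS than in OKMS E-CAD+ 2NG- cells, with 5.07% of all genes called. Oas1g was 41.2 against 0.941 CPM (4.83 ± 0.87, adjusted p = 3.50e-04) and Oas1a 12.7 against 0.521 CPM (4.36 ± 1.17, adjusted p = 0.0212). Both are close copies of each other, so the division of reads between them is uncertain. They were 2 of the 3 genes called higher, with 1 called lower. Oasl2 was 1.82 against 0.683 CPM without a call (adjusted p = 0.738). Between OKMS E-CAD+ and E-CAD- cells 7 of the 59 were called higher and 0 lower, with 4.69% of all genes called higher and 2.39% lower. Gbp2, an interferon-inducible GTPase, was 13.6 against 1.18 CPM (3.56 ± 0.66, adjusted p = 3.09e-04), and Mov10, an RNA helicase, 19.4 against 7.64 CPM.

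In antigen presentation, which interferon also raises, 8 of 12 tested genes fell and 1 rose from MEFs to TNG ESCs, and 2 rose and 2 fell from MEFs to 2NG- cells of both cassettes. These were 75% of the list in ESCs, with 50.9% of all genes called, and 33.33% in each of the 2NG- comparisons, where 27% (MKOS) and 29.2% (OKMS E-CAD+) of all genes were called. Psmb10, an immunoproteasome subunit, rose in 2NG- cells of MKOS (233.4 against 37.13 CPM) and E-CAD+ OKMS (159.6 against 25.4 CPM). H2-K1, a class I heavy chain, rose in both (36.6 against 11.8 CPM and 54.6 against 6.04 CPM), while Tap1, a peptide transporter, fell in both. B2m, the light chain of class I, fell in OKMS (207.6 against 1019 CPM) and was 1.53 higher on the log2 scale in MKOS than in OKMS 2NG- cells. In 2i iPSCs Psmb10 fell together with Bst2 (21.8 against 60.4 CPM, -1.63 ± 0.31, adjusted p = 7.23e-04). Tor3a, which rose from MEFs to 2NG- cells of both cassettes, fell in 2i (1.51 against 9.36 CPM), and Ifi27l1 rose (44.7 against 5.91 CPM).

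Markers of blood cells moved with part of these results, and their part in them was not tested. Of 11 macrophage and blood markers listed 9 were in the table. In MKOS 2NG- cells 6 of the 9 were called higher than in MKOS MEFs (66.67%, against 15% of all genes), with Lyz2 the most abundant. In each of the 2 OKMS 2NG- populations 1 of the 9 was called higher than in OKMS MEFs. That is 11.11%, near the share of all genes called higher (15.7% for E-CAD+ and 11.7% for E-CAD- cells). Sorting on E-cadherin would leave out cells without it, and the highest sums were nonetheless in MKOS E-CAD+ libraries. Their summed level was 1646, 867.1 and 161.2 CPM in the MKOS 2NG- libraries, 1981, 1090 and 170.5 CPM in 3NG- and 965.4, 263.1 and 92.9 CPM in 3NG+. The MEFs had 265.7 and 299.7 CPM in the WT libraries, 140.5 and 123.8 CPM in OKMS and 29.5 and 22.8 CPM in MKOS. OKMS E-CAD+ cells had 268.1, 316.6 and 136.7 CPM in 2NG-, 392.7, 367.8 and 33.4 CPM in 3NG- and 78.8, 740.0 and 45.9 CPM in 3NG+. E-CAD- cells had 764.6, 971.6 and 147.9 CPM in 2NG- and 677.3, 754.1 and 69.7 CPM in 3NG-. In iPSC and ESC conditions the mean sum was 28.7 to 67.7 CPM, most of it Laptm5 or Cd68, and Ptprc and Emr1, which define blood cells and macrophages, were at 0.

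Bst2 was lowest in the library with the lowest marker sum in all 5 OKMS populations and in none of the 3 MKOS populations. In every sorted population that library was the one numbered 3, so this restates the shift of those libraries given above. In MKOS 2NG- cells Bst2 was 134.4, 144.1 and 136.7 CPM while the marker sum went from 1646 to 161.2 CPM. Isg15 followed the same order as the sum there (17.9, 5.31 and 3.39 CPM), and in MKOS 3NG+ and OKMS E-CAD+ 3NG- cells. It did not in MKOS 3NG- cells (15.6, 7.24 and 11.2 CPM) or in the other OKMS populations. In the OKMS E-CAD- populations Bst2 was 53.8 and 66.2 CPM in the library with the lowest sum (147.9 and 69.7 CPM), and in the E-CAD+ 2NG- and 3NG- cells 178.3 and 99.1 CPM (sums 136.7 and 33.4 CPM). In OKMS 3NG+ cells it was 75.7 CPM at the lowest sum (45.9 CPM) and highest, at 174.2 CPM, in the library with the highest sum (740.0 CPM). Across the 24 sorted libraries, on log2(CPM + 1), the sum had a correlation of 0.399 with Isg15, 0.355 with Bst2 and -0.651 with Ifitm1. These are descriptions over libraries that share populations and sorts, and they include the shift of the libraries numbered 3. Fibroblast markers were called lower in 11 of 12 cases in MKOS 2NG- cells, where 12% of all genes were called lower. Their summed level fell from a mean of 6139 CPM in MKOS MEFs to 1117, 573.9 and 805.4 CPM, beside the fall of the 3 Ifitm genes. In OKMS E-CAD+ 2NG- cells these markers were also lower in 11 of 12 cases (13.5% of all genes were called lower). Their median log2 fold change was -4.41 against -3.17 in MKOS. Beside it stood the changes of Ifitm3 (-2.05), of Ifitm2 (-0.74) and of Ifitm1 (0.04, or -3.26 without OKMS E-CAD+ 2NG- replicate 3). The part of fibroblast content in these changes was not tested.

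The members did not share a single pattern over the 20 condition means. Ifitm2 and Ifitm3 had a correlation of 0.768 on log2(mean CPM + 1), Ifitm1 and Ifitm3 one of -0.0749, Isg15 and Irf7 0.751, Isg15 and Bst2 -0.0152, and Isg15 and Ifitm1 -0.748. Genes closest to the mean profile of the 6 members outside the Ifitm family were Rtp4 (0.874), Dmkn (0.870), Ufc1 (0.866) and Gbp7 (0.863), of which Rtp4 and Gbp7 are interferon-stimulated genes. Ctss (0.855), a gene of myeloid cells, was also among the 8 closest. Bst2 itself had a correlation of 0.357 with that profile. Closest to the mean profile of the 3 Ifitm genes were Lrig3 (0.795), Mgmt (0.794) and Serf2 (0.790), and Ifitm2 had a correlation of 0.929 with it. All these correlations are over 20 points that share depth and library preparation.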

How the data were processed

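The authors prepared multiplexed 5′-end (STRT) libraries from 10 ng RNA of each sorted population and deposited 1 table of read counts per transcript. The submitters' processing notes name Bowtie 0.12.7 and build mm10, while the study's methods name mm9. Of 20607 symbols shared with RefSeq on the same chromosome, 62.1% had their deposited position inside the GRCm38 gene, so GRCm38 coordinates are given. The 1554 repeat and 104 spike-in features were left out of totals. Depth and its precision are given with the levels. No 2 libraries of a condition were alike within sampling noise (lowest chi-square per degree of freedom 12.7 over 36 pairs).

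Libraries were grouped by their labels. Counts were scaled by TMM, filtered by filterByExpr and fitted with edgeR 4.0.16 (R 4.3.3), with 1 coefficient per condition over all 48 libraries, a quasi-likelihood test and Benjamini-Hochberg adjustment over 15630 genes. The code was tested on simulated data. Alternatives were DESeq2 1.42.0, its size factors, library totals, no filter, a replicate block, each comparison alone and leaving out libraries. Leave-one-out fits kept the dispersion trend of all libraries. Same-numbered libraries deviated together in MKOS 3NG- and 2NG- (correlations 0.143 to 0.414) and in OKMS E-CAD+ 3NG- and 2NG- (0.146 to 0.403). The main fit did not pair them, and the pairing entered only through the replicate block. Members and gene lists were chosen with earlier results of these data known. Up to 3 genes per list and direction, ranked by size among those called, could be named, and some genes are not reported here.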

Additional observations from a re-analysis of the deposited data

Results flagged for a closer look

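The fall of Ifitm2 from MEFs to 2NG- cells differed between MKOS and OKMS by -1.57 on the log2 scale, by a test of the difference itself. Bst2 was 91.5 CPM in E14 ESCs and 89.5 CPM in TNG ESCs, lines that entered no comparison, and both libraries of each were above all 4 libraries of TNG MKOS and TNG OKMS ESCs. Ifitm2 in D6 iPSCs, also outside the comparisons, was 1338 CPM, with both libraries above the same 4. No condition had the 4 libraries that a check for a single outlying library needs.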

How the results depend on the processing

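Over the 9 members in all comparisons, fits with 1 library left out lost 24 and gained 7 calls of single members in 1215 cases. Of 180 cases each, the replicate block gained 11 calls and lost 0, and the setting without the filter gained 25 and lost 1. The number of members called from OKMS MEFs to E-CAD- 2NG- cells was 1 and became 2 with DESeq2 size factors, DESeq2's Wald test, the libraries compared alone or the libraries numbered 3 left out (an alternative chosen after seeing the data), and 3 without the filter or with the replicate block. For MKOS against OKMS 2NG- cells it went from 2 to 0 with the libraries numbered 3 left out. For the difference between cassettes from MEFs to 2NG- it went from 1 to 4 without the filter and 2 with the block or alone. In iPSCs, 2i against -dox went from 1 to 2 without the filter. Where the count was 0, the setting without a filter gave 3 for MKOS against OKMS 3NG-, 2 for OKMS E-CAD+ against E-CAD-, for both cassettes' 3NG+ cells, for 3NG- against 2NG- of MKOS and of OKMS, for MKOS iPSCs against 3NG+ and for MKOS against OKMS MEFs, and 1 for 3NG+ against 3NG- of both cassettes, OKMS iPSCs against 3NG+ and iPSCs against ESCs. The block gave 2 for MKOS iPSCs against 3NG+, and 1 for E-CAD+ against E-CAD-, both cassettes' 3NG+ cells, MKOS 3NG- against 2NG-, OKMS 3NG+ against 3NG- and iPSCs against ESCs. Leaving out the libraries numbered 3 gave 2 for OKMS 3NG- against 2NG- and 1 for both cassettes' 3NG+ cells, MKOS 3NG- against 2NG-, 3NG+ against 3NG- of both cassettes and MKOS iPSCs against 3NG+. The libraries alone gave 2 for MKOS against OKMS MEFs and 1 for both cassettes' 3NG+ cells, library totals 1 for MKOS 3NG- against 2NG-, and the Wald test 1 for MKOS iPSCs against 3NG+ and for iPSCs against ESCs. The cause of these changes was not tested.

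Leaving out 1 library at a time gave 4 to 4 members for MKOS 2NG- against MEFs, 2 to 4 for OKMS E-CAD+ 2NG-, 1 to 1 for E-CAD- 2NG-, 0 to 2 for MKOS against OKMS 2NG- and for OKMS 3NG- against 2NG-, 1 to 2 for 2i, 5 to 6 for ESCs against MEFs and 0 to 1 for the cassette difference, OKMS E-CAD+ against E-CAD-, OKMS 3NG+ against 3NG- and iPSCs against ESCs. It gave 0 throughout for the other comparisons. Of the differences given in the report, some of Ifitm1 changed sign. Ifitm1 in OKMS E-CAD+ against E-CAD- was 1.24, ranged from -0.40 to 1.74 with 1 library left out, the lowest without OKMS E-CAD+ 2NG- replicate 3, and was -0.27 with all libraries numbered 3 left out. Ifitm1 in MKOS against OKMS 2NG- was -2.91 and ranged from -3.87 to 0.39, the last without that replicate. In OKMS 3NG- against 2NG- it was 1.28 and ranged from -0.08 to 4.57, the lowest without OKMS E-CAD+ 3NG- replicate 3.

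Over all genes, calls moved by over 1.5 times in several comparisons. For MKOS against OKMS 2NG- they went from 793 to 1260 without the filter, for the cassette difference from 211 to 624 (412 by the Wald test), for 2i from 679 to 1025 (357 alone), for MKOS 3NG- against 2NG- from 61 to 237 (92 with the block, 105 by the Wald test, 122 alone), for OKMS 3NG- against 2NG- from 6 to 149 (17 by the Wald test, 0 alone, 33 without the libraries numbered 3), for both cassettes' 3NG+ cells from 107 to 484 (175, block, and 271, Wald), for iPSCs against ESCs from 219 to 564 (503, Wald), for MKOS iPSCs against 3NG+ from 335 to 799 (567, Wald), and for MKOS against OKMS MEFs from 16 to 174 (35 block, 65 Wald, 360 alone). MKOS against OKMS 3NG- went from 339 to 864 without the filter (556, Wald), MKOS 3NG+ against 3NG- from 247 to 887 (609 Wald, 545 alone, 417 block, 375 library totals), OKMS 3NG+ against 3NG- from 979 to 428 alone (1481, Wald), OKMS iPSCs against 3NG+ from 96 to 384 without the filter (217 Wald, 58 alone), transgenic against WT MEFs from 112 to 269 (191 Wald, 374 alone), and the cassette difference from 3NG- to 3NG+ from 4 to 163 (20 Wald, 11 alone, 7 block, 28 without the libraries numbered 3). E-CAD+ against E-CAD- went from 1107 to 596 without the libraries numbered 3. Outside the 2 comparisons whose same-numbered libraries deviated together, the correlations of same-numbered libraries were not all over 0.1 and ran from -0.28 to 0.28. Depth limits the 5 members with few reads, for which 3 reads are up to 2.10 CPM.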
